A study of Mus musculus with 8 samples.

Results

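Cholesterol synthesis and sterol handling was followed through 30 listed mouse genes, from the first enzyme of the mevalonate route to the transporters that carry sterols out of the hepatocyte. Members were found by gene name in a count table of 37583 genes, where Msmo1 stands under its older symbol Sc4mol. A row was found for 29 of the 30 genes, and all 29 were among the 17362 genes that passed the count filter and were tested. Hmgcs1 was not analysed here.

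Hepatocytes build cholesterol from acetyl-CoA. The mevalonate steps make isoprenoid units, the squalene steps join them and close the ring to lanosterol, and the steps after lanosterol trim it to cholesterol. When sterols are plentiful, Insig proteins hold Scap and the transcription factor SREBP-2 (gene Srebf2) in the endoplasmic reticulum, and when sterols are scarce SREBP-2 reaches the nucleus and turns on the synthesis genes and Insig1. Oxysterols, the hydroxylated forms of cholesterol, activate the receptor LXR-alpha (gene Nr1h3), which turns on the exporters Abca1, Abcg5 and Abcg8.

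Bulk liver RNA of C57BL6/CBA mice aged 8 months was sequenced in 8 libraries. The PR-SET7_LOBE group (4 libraries) carried the genotype PR-SET7_LX_ALB_CRE, a loxP-flanked Pr-Set7 gene with Cre under the albumin promoter, which inactivates this histone methyltransferase in hepatocytes while other liver cells keep it. The labels leave LOBE unexplained. The DEN_WT group (2 libraries) came from wild-type mice given the liver carcinogen diethylnitrosamine (DEN) into the peritoneum at 15 days of age, at a labelled dose of 25 ml per kg with no concentration. The WT group (2 libraries) was untreated, and all 3 groups had the same strain and age. A lower level in such bulk samples can mean fewer cells that make the RNA or less RNA per cell, and these cannot be told apart here.

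Total counts lay between 7305595 and 16108081 per library. Levels are given as CPM, counts scaled to a common TMM-adjusted library size. All 10 hepatocyte markers had counts in every group, with a summed level between 46338 and 166038 CPM in PR-SET7_LOBE, between 125374 and 158084 CPM in DEN_WT and between 113619 and 148669.7 CPM in WT. Against WT, 8 of these 10 markers had negative log2 fold changes in each group. Their medians were -0.89 in PR-SET7_LOBE and -0.62 in DEN_WT, against 0.11 and 0.06 over all tested genes. Summed cholangiocyte and progenitor markers (10 genes, none at 0 in any group) lay between 114 and 279 CPM in PR-SET7_LOBE, between 418 and 720 CPM in DEN_WT and between 22.9 and 31.9 CPM in WT. Stellate markers summed to between 195 and 277 CPM in PR-SET7_LOBE, between 229 and 394 CPM in DEN_WT and between 112 and 158 CPM in WT. Macrophage and endothelial sums overlapped between PR-SET7_LOBE and WT, and lymphocyte and neutrophil sums were lowest in DEN_WT. The part of these other cell types in the results was not tested. Setd8, the symbol of Pr-Set7, stood at 62.6, 57.4, 47.9 and 46.5 CPM across the 4 libraries with the PR-SET7_LOBE label, at 40.0 and 42.8 CPM in DEN_WT and at 51.9 and 56.0 CPM in WT. The table counts reads over whole genes and the deleted exons are not given, so Setd8 could not check the genotype labels.

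PR-SET7_LOBE replicate 1 stood apart among its group. Its mean correlation across genes was 0.923 with the WT libraries and 0.890 with the other PR-SET7_LOBE libraries. Its gene levels also followed the GC content of the transcripts. The deviation of a gene from its mean over all libraries correlated with GC percent at r = 0.61 across 16772 genes. In the other libraries this r went with group. It was 0.30 and 0.19 in WT, -0.28 and -0.25 in DEN_WT, and -0.045, -0.29 and -0.23 in PR-SET7_LOBE replicates 2 to 4. A GC trend and a true group difference therefore cannot be told apart in the comparisons with WT. In PR-SET7_LOBE replicate 1 the trend also held among the 29 sterol genes (r = 0.69 across genes that share 1 library, a description with no test). At the GC-poor end, Idi1 (41.9% GC), Sc5d (42.9%), Hsd17b7 (43.9%) and Stard4 (43.9%) deviated there by -1.56, -2.25, -0.12 and -1.92 log2 units. Results that this library decides are given with and without it, and fold changes that a GC correction moves by over 1.5 times are given with it.

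Against WT, none of the 29 sterol genes rose or fell in the libraries labelled PR-SET7_LOBE by edgeR's quasi-likelihood test with Benjamini-Hochberg adjustment over all tested genes, at an adjusted p under 0.05. In that comparison 0.248% of all tested genes were called, 0.15% higher and 0.0979% lower. An unadjusted p under 0.05 was reached by 6 of the 29, while 17.2% of all tested genes reached it, so the share of the sterol genes was near that background. DESeq2, which called 5.57% of all genes, called 1 higher (Npc1l1) and 1 lower (Tm7sf2), and limma voom, which called 2.22%, called 1 lower (Tm7sf2). The levels of 9 of the 29 genes lay below WT in all 4 libraries, where 10.5% of all tested genes did so, and none lay above WT in all 4, where 11.6% did. Fold changes were negative for 21 genes and positive for 8, with a median of -0.35 on the log2 scale against 0.11 over all tested genes. The 10 hepatocyte markers had a median of -0.89.

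In DEN_WT against WT, Acat2 fell and none of the 29 genes rose, where 9.73% of all tested genes were called, 4.54% lower and 5.18% higher. Unadjusted p under 0.05 was reached by 5 of the 29, against 28.9% of all tested genes. DESeq2 called 2 higher (Abca1 and Insig2) and 3 lower (Acat2, Fdps and Pmvk), where it called 18.1% of all genes. Limma voom called 5 higher and 8 lower, where it called 36.5% of all genes. With 2 libraries against 2, the levels of 13 sterol genes lay below and 9 above both WT libraries, near the shares of all tested genes (33.3% and 37.8%). The median log2 fold change was -0.07, against 0.06 over all tested genes, and upper-quartile scaling moved it to 0.00139. Both comparisons with WT use the same 2 WT libraries, so their values stand side by side and are not independent. The labels name no batch, so DEN treatment cannot be told apart from a separate preparation or sequencing of the DEN_WT libraries.

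Between PR-SET7_LOBE and DEN_WT, edgeR's quasi-likelihood test called none of the 29 genes, where 11.1% of all tested genes were called, 4.82% higher and 6.26% lower. Unadjusted p under 0.05 was reached by 4 genes (Acat2, Abca1, Nsdhl and Sc5d), against 25.8% of all tested genes. DESeq2 called Acat2 higher and Abca1 lower (16.4% of all genes called), and limma voom called 1 higher and 6 lower (29.9% of all genes called). Levels lay below DEN_WT in all 4 PR-SET7_LOBE libraries for 7 genes and above it for 1, against 21.2% and 19.3% of all tested genes.

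Without PR-SET7_LOBE replicate 1 the spread within groups shrank and more genes passed. Then Idi1 was called higher and Mvk, Nr1h3, Scap and Tm7sf2 lower in PR-SET7_LOBE against WT, where 13.9% of all tested genes were called, 7.41% higher and 6.54% lower. In DEN_WT against WT, Abca1, Insig2, Sc5d and Stard4 were then called higher and Acat2, Fdps, Mvk, Nr1h3 and Pmvk lower, where 26.5% of all tested genes were called, 14.6% higher and 11.9% lower. Between PR-SET7_LOBE and DEN_WT, Acat2 was then called higher and Abca1 lower, against 15.5% of all tested genes in all, 6.93% higher and 8.6% lower.

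**Figure D1:**
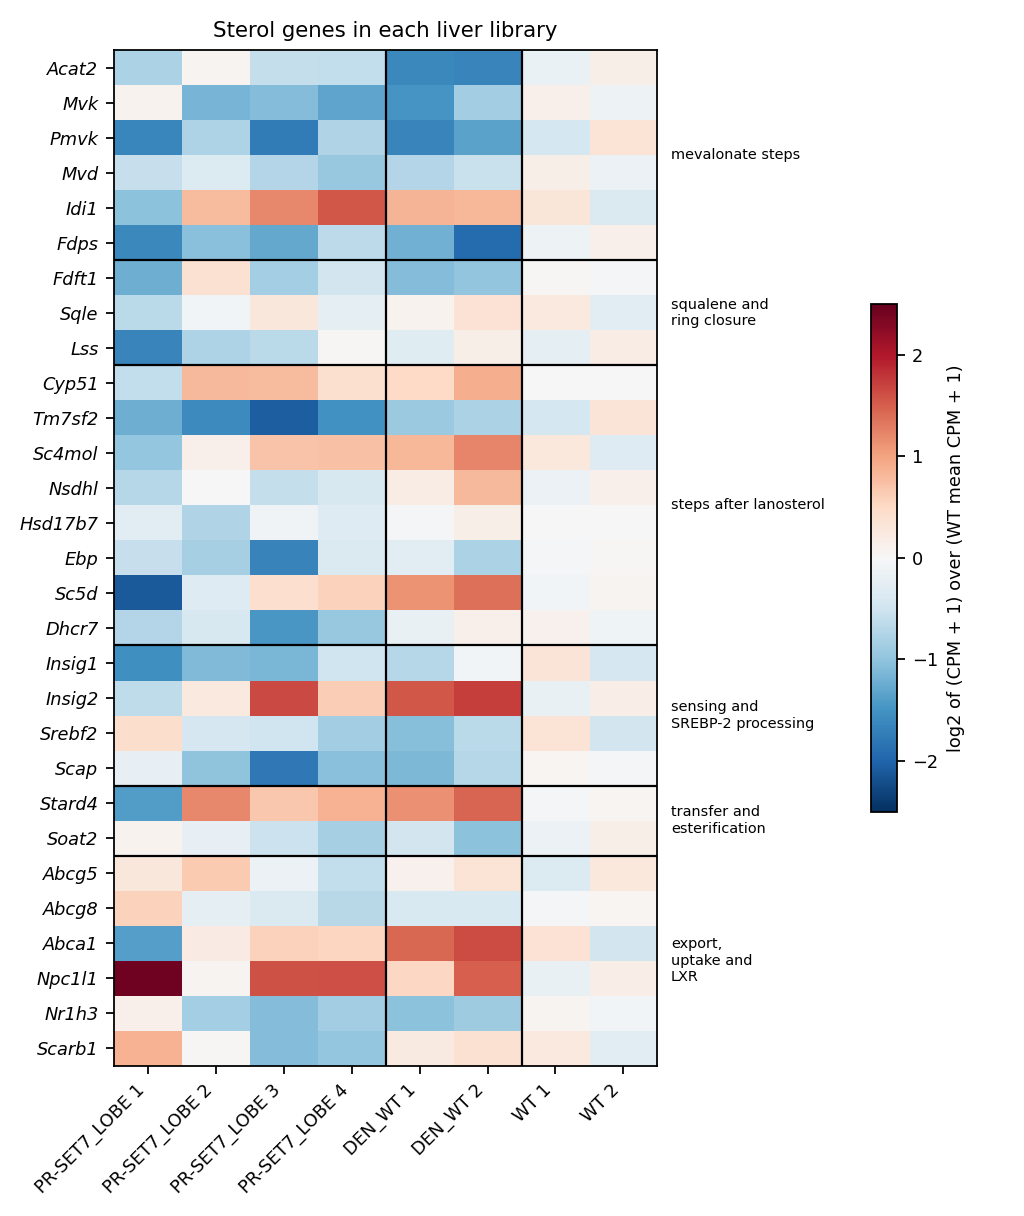
Level of each of the 29 sterol genes (down the page, grouped by role) in each of the 8 libraries (across), as log2 of CPM + 1 over the WT mean CPM + 1, red above and blue below the WT mean. In PR-SET7_LOBE replicate 1 Sc5d, Stard4 and Abca1 are blue while the other 3 libraries of that group are near or above the WT mean, and both DEN_WT libraries are red for Sc5d, Insig2, Stard4 and Abca1.

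Of the 6 mevalonate genes, 5 had negative fold changes against WT in both groups, and 1 of them passed, in DEN_WT. Acat2 encodes the cytosolic acetoacetyl-CoA thiolase that opens the route (ENSMUSG00000023832, mm9 chromosome 17, 13135756 to 13153613, minus strand), and is not the cholesterol-esterifying enzyme of a like abbreviation, which is Soat2. Its level was 157, 283, 179 and 177 CPM in PR-SET7_LOBE, 88.2 and 85.4 CPM in DEN_WT, and 242 and 301 CPM in WT. Both DEN_WT libraries lay below every other library, while PR-SET7_LOBE and WT overlapped. Acat2 averaged 86.8 ± 1.97 CPM in DEN_WT and 272 ± 41.6 CPM in WT (SD, n = 2 each), and it fell by 1.65 on the log2 scale in DEN_WT (SE 0.45, adjusted p = 0.0424 by edgeR's quasi-likelihood test with Benjamini-Hochberg adjustment). In PR-SET7_LOBE the log2 fold change was -0.45 against WT (SE 0.37, adjusted p = 0.531) and 1.20 against DEN_WT (SE 0.40, adjusted p = 0.0806), by the same test.

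The call of Acat2 in DEN_WT rested on little margin. By edgeR it was lost without WT replicate 1 (adjusted p = 0.124), WT replicate 2 (0.219), DEN_WT replicate 1 (0.261), DEN_WT replicate 2 (0.307) and PR-SET7_LOBE replicate 3 (0.0540), and it held in 11 of 18 alternatives, with adjusted p between 0.0012 and 0.307. Acat2 also has a near-identical neighbour: its transcript matched that of Acat3 at 97.7% over 1477 bases, and 445 of its bases matched Tcp1 at 98.7%. Acat3 stood at 97.8, 164, 121 and 119.8 CPM in PR-SET7_LOBE, at 60.7 and 62.8 CPM in DEN_WT and at 137 and 158 CPM in WT, in the same order of groups as Acat2. With the counts of both genes added, the log2 fold change in DEN_WT was -1.50 and no longer passed (adjusted p = 0.0592). The share of the pair's counts given to Acat3 was 40.8% and 42.4% in DEN_WT and 36.1% and 34.4% in WT, and the summed level of the pair was 149 and 148 CPM in DEN_WT and 379 and 459 CPM in WT.

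Phosphomevalonate kinase, Pmvk, and farnesyl diphosphate synthase, Fdps, which makes the precursor of squalene, were lower than WT in every library of both groups but did not pass in either. Pmvk stood at 42.2, 77.8, 38.9 and 78.6 CPM in PR-SET7_LOBE, 41.5 and 52.4 CPM in DEN_WT, and 97.3 and 169 CPM in WT. Its log2 fold change against WT was -1.16 in PR-SET7_LOBE (SE 0.41, adjusted p = 0.217) and -1.50 in DEN_WT (SE 0.50, adjusted p = 0.0805, edgeR's quasi-likelihood test with Benjamini-Hochberg adjustment). Without WT replicate 2 the Pmvk values were -0.65 and -0.95 in these groups, and without PR-SET7_LOBE replicate 1 Pmvk passed in DEN_WT (adjusted p = 0.0312, within 0.00764 to 0.397 over 18 alternatives). Fdps stood at 169, 251, 214 and 328 CPM in PR-SET7_LOBE, 224 and 137 CPM in DEN_WT, and 474 and 564 CPM in WT. Its log2 fold change was -1.11 in PR-SET7_LOBE (SE 0.40, adjusted p = 0.219) and -1.52 in DEN_WT (SE 0.48, adjusted p = 0.0697), by that test. No library of either group reached the lower WT library for Pmvk or Fdps.

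Mevalonate kinase, Mvk, and mevalonate diphosphate decarboxylase, Mvd, lay in the same direction at lower levels. Mvk stood at 67.2, 27.6, 29.3 and 24.7 CPM in PR-SET7_LOBE, 22.05 and 34.0 CPM in DEN_WT, and 68.4 and 57.4 CPM in WT, so that PR-SET7_LOBE replicate 1 alone lay within the WT range. Without that library its log2 fold change against WT was -1.20 in PR-SET7_LOBE (adjusted p = 0.0292, against 0.383 with all libraries) and -1.17 in DEN_WT (adjusted p = 0.0227, against 0.174), by edgeR's quasi-likelihood test. With the GC correction Mvk was at -0.69 in DEN_WT (adjusted p = 0.228). Over 18 alternatives the adjusted p of Mvk lay between 0.0292 and 0.833 in PR-SET7_LOBE and between 0.0132 and 0.583 in DEN_WT. Mvd stood between 34.0 and 52.3 CPM in PR-SET7_LOBE, at 39.8 and 45.2 CPM in DEN_WT, and at 73.5 and 60.02 CPM in WT. Both groups lay below WT for Mvd with log2 fold changes of -0.65 in each, and neither passed. With the GC correction these were -0.41 in PR-SET7_LOBE and -0.03 in DEN_WT.

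Idi1, the isomerase that interconverts the isoprenoid units, went the other way from the 5 other mevalonate genes. It stood at 39.7, 143, 189 and 242 CPM in PR-SET7_LOBE, 148 and 147 CPM in DEN_WT, and 101 and 63.2 CPM in WT. PR-SET7_LOBE replicate 1 was the lowest library and the other 3 of its group lay above WT. The log2 fold change against WT was 0.91 in PR-SET7_LOBE (SE 0.60, adjusted p = 0.438 by edgeR's quasi-likelihood test, and 0.0471 without PR-SET7_LOBE replicate 1) and 0.84 in DEN_WT (SE 0.67, adjusted p = 0.422). Idi1 was the most GC-poor of the 29 genes, and with a correction for GC content its log2 fold change was 0.26 in PR-SET7_LOBE and -0.12 in DEN_WT, so the direction in DEN_WT turned. Over 18 alternatives its adjusted p was 0.0471 or more in PR-SET7_LOBE and 0.0576 or more in DEN_WT.

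The promoter windows below are shown for Acat2, the gene that passed in DEN_WT, for Tm7sf2, the gene with the smallest p in PR-SET7_LOBE, and for Nsdhl and Sc5d, enzymes after lanosterol with an unadjusted p under 0.05 between the PR-SET7_LOBE and DEN_WT groups. Each window runs from 250 bases before to 50 bases after the annotated start, 5′ to 3′ on the gene's strand, from RefSeq on GRCm38.p6, which is not the mm9 build of the count table. Capitals mark CCAAT or its reverse complement ATTGG, the box bound by NF-Y, a partner of SREBP at many sterol genes. The windows are chr17:12960676-12960975 (minus strand) for Acat2, chr19:6067801-6068100 (minus strand) for Tm7sf2, chrX:72918271-72918570 (plus strand) for Nsdhl and chr9:42264251-42264550 (minus strand) for Sc5d.
Acat2: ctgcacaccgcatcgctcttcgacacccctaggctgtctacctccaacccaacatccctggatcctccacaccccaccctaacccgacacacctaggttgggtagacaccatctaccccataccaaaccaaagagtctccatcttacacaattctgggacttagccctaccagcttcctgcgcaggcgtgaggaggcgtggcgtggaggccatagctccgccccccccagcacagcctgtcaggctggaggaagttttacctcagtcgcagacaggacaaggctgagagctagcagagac
Tm7sf2: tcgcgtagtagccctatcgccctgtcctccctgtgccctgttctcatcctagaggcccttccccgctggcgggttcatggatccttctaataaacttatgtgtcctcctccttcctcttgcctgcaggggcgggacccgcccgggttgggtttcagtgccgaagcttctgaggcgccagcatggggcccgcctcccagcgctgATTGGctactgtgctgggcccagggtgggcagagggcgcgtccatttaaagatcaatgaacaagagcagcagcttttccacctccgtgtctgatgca
Nsdhl: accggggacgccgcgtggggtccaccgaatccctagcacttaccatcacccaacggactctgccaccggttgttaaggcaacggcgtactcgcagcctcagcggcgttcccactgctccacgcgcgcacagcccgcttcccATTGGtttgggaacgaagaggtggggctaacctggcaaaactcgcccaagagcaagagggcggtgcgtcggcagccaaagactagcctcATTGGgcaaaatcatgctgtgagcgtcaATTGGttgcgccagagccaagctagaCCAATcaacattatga
Sc5d: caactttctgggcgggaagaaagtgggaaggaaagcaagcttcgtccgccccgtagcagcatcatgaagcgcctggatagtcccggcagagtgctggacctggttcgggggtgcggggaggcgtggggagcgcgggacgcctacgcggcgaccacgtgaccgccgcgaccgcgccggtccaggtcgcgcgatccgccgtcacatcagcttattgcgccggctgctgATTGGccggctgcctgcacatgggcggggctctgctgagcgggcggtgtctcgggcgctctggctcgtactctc
Of the 30 genes, 24 had a RefSeq promoter entry, with 32 windows in all, and Fdps, Fdft1, Sqle, Soat2, Stard4 and Scarb1 are named only. CCAAT was found on either strand in 20 of the 32 windows, against 37.4% of all 32851 promoter windows of the same length. Acat2 had no match, Tm7sf2 and Sc5d had 1 each and Nsdhl had 4. The sterol regulatory element spelled TCACNCCAC was found in 1 of the 32 windows (Hmgcs1), against 1.24% of all windows. The LXR half-site pair (direct repeat with a spacer of 4 bases) was found in none, against 0.0152% of all windows. In the printed windows CCAAT was the only motif found, so no motifs overlap there, and a match describes letters only.

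Squalene and ring-closing enzymes showed no gene past the threshold in any comparison of the main edgeR fit, though Fdft1 passed in DEN_WT against WT in 2 of 18 alternatives. Squalene synthase, Fdft1, stood at 85.7, 263, 112 and 148 CPM in PR-SET7_LOBE, 94.7 and 101 CPM in DEN_WT, and 208 and 197 CPM in WT, below WT in both DEN_WT libraries and on both sides of it in PR-SET7_LOBE. Lanosterol synthase, Lss, stood at 39.4, 73.8, 78.5 and 129 CPM in PR-SET7_LOBE, 102 and 139 CPM in DEN_WT, and 108 and 145 CPM in WT, with overlap throughout. The log2 fold changes against WT were -0.41 and -0.66 in PR-SET7_LOBE for Fdft1 and Lss (adjusted p = 0.640 and 0.446), and -1.04 and -0.07 in DEN_WT (adjusted p = 0.217 and 0.948), by edgeR's quasi-likelihood test with Benjamini-Hochberg adjustment. Squalene epoxidase, Sqle, ranged from 87.1 to 169.9 CPM in PR-SET7_LOBE, stood at 149 and 180.3 CPM in DEN_WT and at 165 and 114 CPM in WT. Fdft1 overlaps Ctsb on the opposite strand by 769 bases, and the strand setting of the counts is not given, so its value is uncertain.

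Counts of 2 processed pseudogenes, which are intron-free copies of a gene's RNA in the genome, were higher in DEN_WT. Neither of their parent genes, Fdft1 and Idi1, was called there in the main edgeR fit. Gm6781 matches Fdft1 at 97.4% over 1249 bases and stood at 1.03, 1.53, 0.557 and 0.455 CPM in PR-SET7_LOBE, 21.6 and 38.9 CPM in DEN_WT, and 0.766 and 2.40 CPM in WT. Gm13502 matches Idi1 at 100% over 684 bases and stood at 0.376, 4.21, 6.41 and 7.65 CPM in PR-SET7_LOBE, 46.4 and 63.1 CPM in DEN_WT, and 1.15 and 2.03 CPM in WT. Both rose in DEN_WT against WT by edgeR's quasi-likelihood test with Benjamini-Hochberg adjustment, with log2 fold changes of 4.25 (SE 0.75, adjusted p = 0.00665) and 5.10 (SE 1.00, adjusted p = 0.0115). Gm6781 held 18.6% and 27.7% of the summed counts of the Fdft1 pair in DEN_WT and 0.367% and 1.20% in WT, and Gm13502 held 23.9% and 30.1% of the Idi1 pair in DEN_WT and 1.13% and 3.11% in WT. All processed pseudogenes together held 1.73% and 2.16% of the counts in DEN_WT, between 0.650% and 0.845% in PR-SET7_LOBE, and 0.735% and 1.04% in WT. With the copies added, Fdft1 had a log2 fold change of -0.67 in DEN_WT against WT in place of -1.04, and Idi1 1.27 in place of 0.84, and neither passed (adjusted p = 0.423 and 0.239). How reads with several hits were assigned is not given, and the part of that step in these values was not tested.

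**Figure D2:**
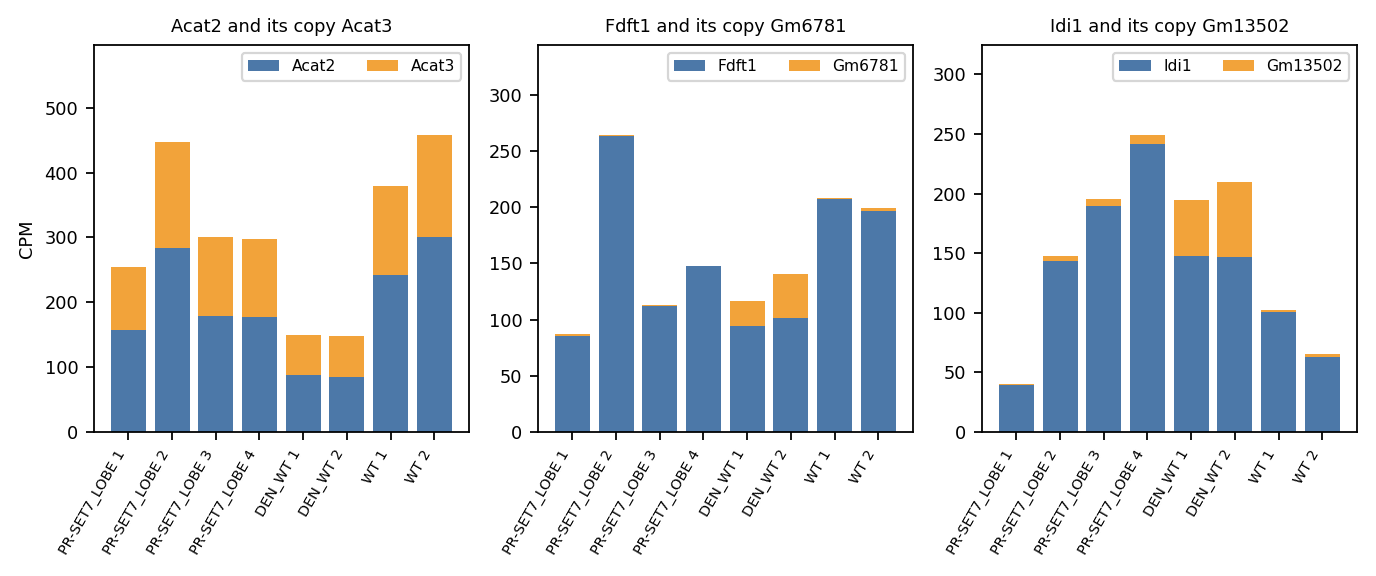
Stacked bars of CPM in each of the 8 libraries for Acat2, Fdft1 and Idi1 (blue) and their near-identical copies Acat3, Gm6781 and Gm13502 (orange). Gm6781 and Gm13502 are visible mainly in the 2 DEN_WT libraries, at 21.6 and 38.9 CPM and at 46.4 and 63.1 CPM, while Acat3 keeps a like share of its pair in all libraries.

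Among the steps after lanosterol, the lowest p of the set in PR-SET7_LOBE belonged to Tm7sf2, a sterol reductase that acts on the ring (ENSMUSG00000024799, mm9 chromosome 19, 6062821 to 6068373, minus strand). It stood at 57.9, 44.5, 31.9 and 47.4 CPM in PR-SET7_LOBE, 70.9 and 77.99 CPM in DEN_WT, and 101 and 172 CPM in WT. The 3 groups did not overlap, with PR-SET7_LOBE lowest. Against WT the log2 fold change was -1.59 in PR-SET7_LOBE (SE 0.36, 95% confidence interval -2.38 to -0.79, adjusted p = 0.0972) and -0.87 in DEN_WT (SE 0.44, adjusted p = 0.209), by edgeR's quasi-likelihood test with Benjamini-Hochberg adjustment. It passed in PR-SET7_LOBE in 4 of 18 alternatives (adjusted p between 0.00406 and 0.612), among them the fit without PR-SET7_LOBE replicate 1, with a log2 fold change of -1.72 and an adjusted p of 0.0208. Tm7sf2 overlaps 1110014N23Rik on the same strand by 532 bases, and that gene was at 24.4 ± 14.0 CPM in PR-SET7_LOBE (SD, n = 4) and 39.4 ± 8.88 CPM in WT (SD, n = 2).

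Dhcr7, the reductase of the last step to cholesterol, stood at 121, 153, 73.2 and 105 CPM in PR-SET7_LOBE, 178 and 222 CPM in DEN_WT, and 218 and 187 CPM in WT. All 4 PR-SET7_LOBE libraries lay below both other groups, which overlapped each other. The log2 fold change of Dhcr7 was -0.84 in PR-SET7_LOBE against WT (SE 0.38, adjusted p = 0.281) and -0.82 against DEN_WT (SE 0.38, adjusted p = 0.197), by edgeR's quasi-likelihood test. With the GC correction the log2 difference from DEN_WT was -1.07 and passed the threshold narrowly (adjusted p = 0.0497, edgeR's quasi-likelihood test). Ebp, the isomerase upstream of it, stood between 76.1 and 191 CPM in PR-SET7_LOBE, at 200.4 and 140.3 CPM in DEN_WT and at 240.4 and 248 CPM in WT, below WT in all 6 libraries.

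Sc5d, the desaturase that precedes Dhcr7, was chosen for description after its values were seen, as were Mvk, Idi1, Nsdhl, Sc4mol, Srebf2 and Abca1. It stood at 34.7, 122, 203 and 228 CPM in PR-SET7_LOBE, 332 and 393 CPM in DEN_WT, and 145 and 158 CPM in WT, with both DEN_WT libraries above all others and PR-SET7_LOBE replicate 1 below all others. Its log2 fold change was 1.26 in DEN_WT against WT (SE 0.70, adjusted p = 0.256) and -1.31 in PR-SET7_LOBE against DEN_WT (SE 0.58, adjusted p = 0.182), by edgeR's quasi-likelihood test with Benjamini-Hochberg adjustment. Without PR-SET7_LOBE replicate 1 the first of these passed (log2 fold change 1.26, adjusted p = 0.0370), and with the GC correction it was 0.42 (adjusted p = 0.601). Those are near the lowest and at the highest adjusted p of 18 alternatives, which began at 0.0156.

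Nsdhl, the sterol dehydrogenase that removes a carboxyl carbon at demethylation, stood at 48.2, 80.4, 52.5 and 60.5 CPM in PR-SET7_LOBE, 91.5 and 139.9 CPM in DEN_WT, and 72.5 and 87.2 CPM in WT. PR-SET7_LOBE lay below DEN_WT in all 4 libraries, by a log2 difference of -0.94 (SE 0.35, adjusted p = 0.121, edgeR's quasi-likelihood test). The oxidase Sc4mol, which acts just before it, stood at 53.0, 114, 171 and 175 CPM in PR-SET7_LOBE, 186 and 244 CPM in DEN_WT, and 126 and 82.6 CPM in WT, below DEN_WT in all 4 PR-SET7_LOBE libraries. Cyp51, the lanosterol demethylase, ranged from 63.1 to 169.8 CPM in PR-SET7_LOBE, stood at 136 and 184 CPM in DEN_WT and at 97.7 and 95.8 CPM in WT. Hsd17b7, a ketosteroid reductase of the same complex of steps, ranged from 33.9 to 54.5 CPM in PR-SET7_LOBE, stood at 56.7 and 64.2 CPM in DEN_WT and at 58.0 and 58.1 CPM in WT.

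**Figure D3:**
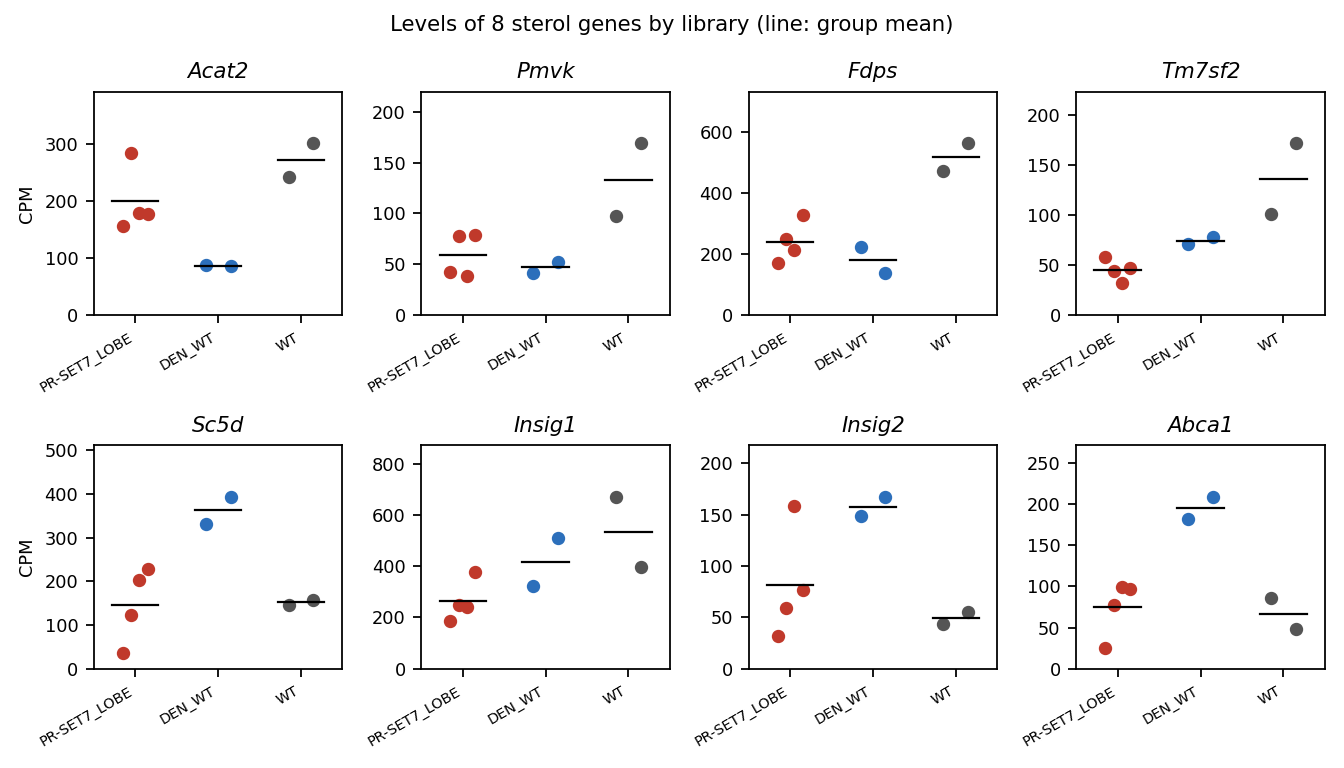
CPM of 8 sterol genes in each library, with PR-SET7_LOBE left (red, 4 libraries), DEN_WT in the middle (blue, 2 libraries) and WT right (grey, 2 libraries), and a line at each group mean. Both DEN_WT libraries of Acat2 lie below all other libraries (88.2 and 85.4 CPM), and those of Sc5d (332 and 393 CPM) and Abca1 (182 and 209 CPM) above all others.

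The early and late steps lay apart in DEN_WT. Against WT, the 6 mevalonate genes had a median log2 fold change of -1.33 in DEN_WT, with 5 of 6 negative, and the 8 genes after lanosterol a median of 0.30, with 5 of 8 positive. Without DEN_WT replicate 2 the second median was 0.10, with 4 of 8 positive. In PR-SET7_LOBE the medians were -0.70 and -0.38. Summed per length, the mevalonate genes held 187, 296, 230.5 and 290.1 CPM per kb in PR-SET7_LOBE, 184 and 176 CPM per kb in DEN_WT, and 359 and 423 CPM per kb in WT, so both groups lay below WT. The genes after lanosterol held 161, 213, 189.7 and 246 CPM per kb in PR-SET7_LOBE, 306 and 340.3 CPM per kb in DEN_WT, and 274 and 288 CPM per kb in WT. Here PR-SET7_LOBE lay below WT and DEN_WT above it. The DEN_WT excess rested on Sc5d, which averaged 74.5 CPM per kb in DEN_WT and 31.2 in WT. Without Sc5d the sums after lanosterol overlapped between DEN_WT and WT. With the GC correction the log2 fold change of Sc5d in DEN_WT against WT was 0.42. The late over early ratio was between 0.718 and 0.861 in PR-SET7_LOBE, 1.66 and 1.94 in DEN_WT, and 0.763 and 0.682 in WT, and with Acat3 and Gm13502 added it was between 0.588 and 0.725, 1.38 and 1.56, and 0.663 and 0.594.

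Scaling and GC content moved the size of this split. After the GC correction the mevalonate median in DEN_WT was -0.86, with all 6 negative, and the median after lanosterol was 0.20. In PR-SET7_LOBE against WT the corrected medians were -0.60 for the mevalonate genes and -0.64 for those after lanosterol, in place of -0.70 and -0.38. Between PR-SET7_LOBE and DEN_WT all 8 genes after lanosterol were negative, 6 of them with no overlap between the groups (21.2% of all tested genes lay that way). All 6 mevalonate genes were positive, 1 with no overlap, but Mvd at 0.005 and Idi1 at 0.06 were near 0. Only 5 were positive with DESeq2's size factors and 4 without PR-SET7_LOBE replicate 1. After the GC correction 7 of the 8 genes after lanosterol were negative and 4 of the 6 mevalonate genes positive. Mvd was then at -0.38 and Idi1 at 0.38. In the main edgeR fit no gene after lanosterol passed in any comparison, while some, such as Tm7sf2, passed in alternatives. The sums and medians carry no test.

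**Figure D4:**
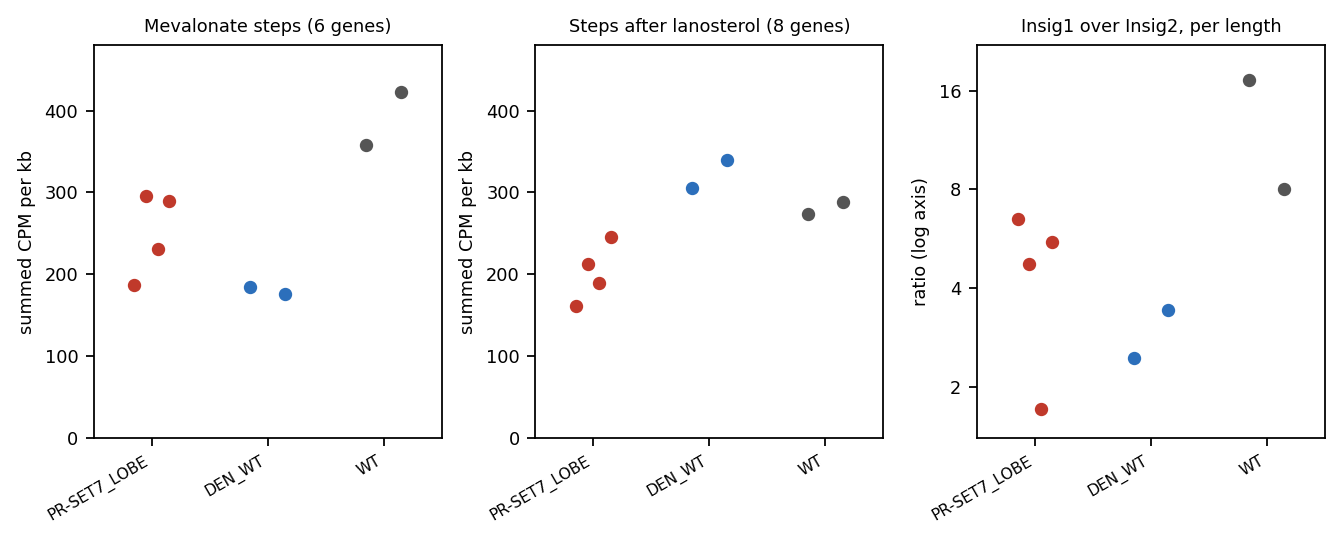
Summed level per length (CPM per kb) of the 6 mevalonate genes and the 8 genes after lanosterol, and the ratio of Insig1 to Insig2 per length on a log axis, 1 point per library, with PR-SET7_LOBE left, DEN_WT in the middle and WT right. Mevalonate sums of both groups lie below the WT sums of 359 and 423. The sums after lanosterol are highest in DEN_WT (306 and 340.3), but without Sc5d they overlap those of WT. The Insig1 to Insig2 ratio of every PR-SET7_LOBE and DEN_WT library lies below the lower WT ratio of 8.02.

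Of the sterol-sensing genes, Insig1 and Insig2, which encode the paired retention proteins, had fold changes of opposite sign against WT, with values that single libraries moved. Insig1, itself an SREBP target, stood at 185, 249, 242 and 379 CPM in PR-SET7_LOBE, 324 and 511 CPM in DEN_WT, and 670.4 and 398 CPM in WT, below WT in all 4 PR-SET7_LOBE libraries. Insig2, which has a liver transcript that insulin lowers, stood at 31.8, 59.1, 159 and 77.1 CPM in PR-SET7_LOBE, 149 and 167 CPM in DEN_WT, and 43.7 and 55.7 CPM in WT, above WT in both DEN_WT libraries and in 3 of 4 PR-SET7_LOBE libraries. The log2 fold changes of Insig1 were -1.02 in PR-SET7_LOBE (SE 0.43, adjusted p = 0.265) and -0.36 in DEN_WT (SE 0.51, adjusted p = 0.669), by edgeR's quasi-likelihood test with Benjamini-Hochberg adjustment. Without WT replicate 1 they were -0.60 in PR-SET7_LOBE and 0.08 in DEN_WT, where the sign turned. Insig2 had log2 fold changes of 0.72 in PR-SET7_LOBE (SE 0.56, adjusted p = 0.505) and 1.67 in DEN_WT (SE 0.64, adjusted p = 0.117). Without PR-SET7_LOBE replicate 3, the highest library of that group, Insig2 was at 0.24 in PR-SET7_LOBE. Insig2 in DEN_WT passed without PR-SET7_LOBE replicate 1 (adjusted p = 0.0293) and in 6 of 18 alternatives in all (adjusted p between 0.00458 and 0.368), and the GC correction gave log2 fold changes of 0.37 in PR-SET7_LOBE and 1.27 in DEN_WT.

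Per length, Insig1 stood above Insig2 in every library. The ratio was 6.52, 4.74, 1.72 and 5.52 in PR-SET7_LOBE, 2.45 and 3.42 in DEN_WT, and 17.2 and 8.02 in WT. Neither group overlapped WT. The pair was set side by side with earlier results known, so the ratio is a description with no test.

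Scap, the escort of SREBP, stood at 154, 87.9, 50.8 and 85.4 CPM in PR-SET7_LOBE, 80.8 and 108 CPM in DEN_WT, and 185 and 171 CPM in WT. Every library of both groups lay below WT. The log2 fold change was -0.91 in PR-SET7_LOBE (SE 0.43, adjusted p = 0.301) and -0.92 in DEN_WT (SE 0.51, adjusted p = 0.257), by edgeR's quasi-likelihood test, and -1.25 in PR-SET7_LOBE without replicate 1 of that group (adjusted p = 0.0361, the lowest of 18 alternatives, which ran up to 0.729). With the GC correction Scap was at -0.81 in PR-SET7_LOBE and -0.30 in DEN_WT. Srebf2, the gene of SREBP-2, stood at 189.8, 104, 97.8 and 76.3 CPM in PR-SET7_LOBE, 66.4 and 86.7 CPM in DEN_WT, and 178 and 101 CPM in WT, overlapping WT in PR-SET7_LOBE and below it in DEN_WT with a log2 fold change of -0.87 (adjusted p = 0.286), or -0.28 with the GC correction.

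Stard4, a soluble carrier that moves cholesterol between membranes, stood at 23.9, 150.0, 103 and 119 CPM in PR-SET7_LOBE, 145 and 180.1 CPM in DEN_WT, and 62.7 and 66.8 CPM in WT. Both DEN_WT libraries and 3 of 4 PR-SET7_LOBE libraries lay above WT, and PR-SET7_LOBE replicate 1 below it. In DEN_WT its log2 fold change was 1.33 (SE 0.67, adjusted p = 0.212 by edgeR's quasi-likelihood test), 1.33 without PR-SET7_LOBE replicate 1 (adjusted p = 0.0156) and 0.64 with the GC correction, and over 18 alternatives the adjusted p lay between 0.00967 and 0.526. Soat2, which esterifies cholesterol in the hepatocyte, stood at 61.2, 49.4, 39.4 and 31.5 CPM in PR-SET7_LOBE, 41.2 and 27.6 CPM in DEN_WT, and 51.3 and 63.1 CPM in WT, with log2 fold changes of -0.33 and -0.73 against WT in PR-SET7_LOBE and DEN_WT (adjusted p = 0.644 and 0.284), and -0.32 in DEN_WT with the GC correction.

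No exporter passed against WT in the main edgeR fit. Abca1, which loads cholesterol onto apolipoprotein A-I, stood at 25.2, 77.1, 99.98 and 96.8 CPM in PR-SET7_LOBE, 182 and 209 CPM in DEN_WT, and 85.7 and 48.0 CPM in WT. DEN_WT lay above both other groups, which overlapped. Abca1 had a log2 fold change of 1.55 in DEN_WT against WT (SE 0.61, adjusted p = 0.126) and -1.39 in PR-SET7_LOBE against DEN_WT (SE 0.50, adjusted p = 0.104), by edgeR's quasi-likelihood test with Benjamini-Hochberg adjustment. Both passed without PR-SET7_LOBE replicate 1 (1.55, adjusted p = 0.0145, and -1.09, adjusted p = 0.0443), and with the GC correction they were 1.36 (adjusted p = 0.103) and -1.43 (adjusted p = 0.0405). Over 18 alternatives the adjusted p lay between 0.00364 and 0.394 for DEN_WT against WT and between 0.0121 and 0.467 for PR-SET7_LOBE against DEN_WT.

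Abcg5 and Abcg8 are the paired subunits of the transporter that sends sterols into bile. Their fold changes in DEN_WT against WT were smaller than that of Abca1, a difference that was not tested. Abcg5 ranged from 53.5 to 129 CPM in PR-SET7_LOBE, stood at 88.5 and 105 CPM in DEN_WT and at 64.8 and 99.3 CPM in WT. Abcg8 ranged from 98.9 to 239 CPM in PR-SET7_LOBE, stood at 123 and 124 CPM in DEN_WT and at 154 and 167 CPM in WT. Against WT, Abcg5 had log2 fold changes of 0.12 in PR-SET7_LOBE and 0.24 in DEN_WT, Abcg8 had -0.11 and -0.38 in these groups, and the 95% confidence intervals of these ran from -1.42 to 1.29. With the GC correction the DEN_WT values were 0.42 for Abcg5 and -0.03 for Abcg8. The genes overlap by 6710 bases on opposite strands in the table, and without a stated strand setting their reads cannot be told apart where they overlap.

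Nr1h3, the gene of LXR-alpha, stood at 253, 128, 109 and 127 CPM in PR-SET7_LOBE, 114 and 125 CPM in DEN_WT, and 243 and 221 CPM in WT. DEN_WT and 3 of 4 PR-SET7_LOBE libraries lay near each other and below WT, and PR-SET7_LOBE replicate 1 lay above it. The log2 fold change was -0.59 in PR-SET7_LOBE (SE 0.41, adjusted p = 0.456) and -0.96 in DEN_WT (SE 0.48, adjusted p = 0.215) by edgeR's quasi-likelihood test. Without that library it was -0.93 (adjusted p = 0.0447) and -0.96 (adjusted p = 0.0369), and with the GC correction -0.53 and -0.46 (adjusted p = 0.273 and 0.371). Over 18 alternatives the adjusted p lay between 0.0447 and 0.886 in PR-SET7_LOBE and between 0.0172 and 0.577 in DEN_WT.

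Npc1l1, which takes sterols up at the gut surface, stood at 5.17, 0.191, 2.41 and 2.46 CPM in PR-SET7_LOBE, 0.620 and 2.21 CPM in DEN_WT, and 0 and 0.277 CPM in WT. The WT libraries held 3 counts in all, against 110 in PR-SET7_LOBE and 32 in DEN_WT. Scaled to library size, the ratio to WT was 18.2 in PR-SET7_LOBE (95% counting interval 6.07 to 89.7) and 10.04 in DEN_WT (3.14 to 51.3), intervals that cover counting error only. PR-SET7_LOBE replicate 2 lay within the WT range, and edgeR's quasi-likelihood test gave adjusted p = 0.210 and 0.178. Scarb1, the receptor for high-density lipoprotein, ranged from 115 to 447 CPM in PR-SET7_LOBE, stood at 286 and 319 CPM in DEN_WT and at 290.4 and 200.4 CPM in WT, with overlap in every pair of groups.

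**Figure D5:**
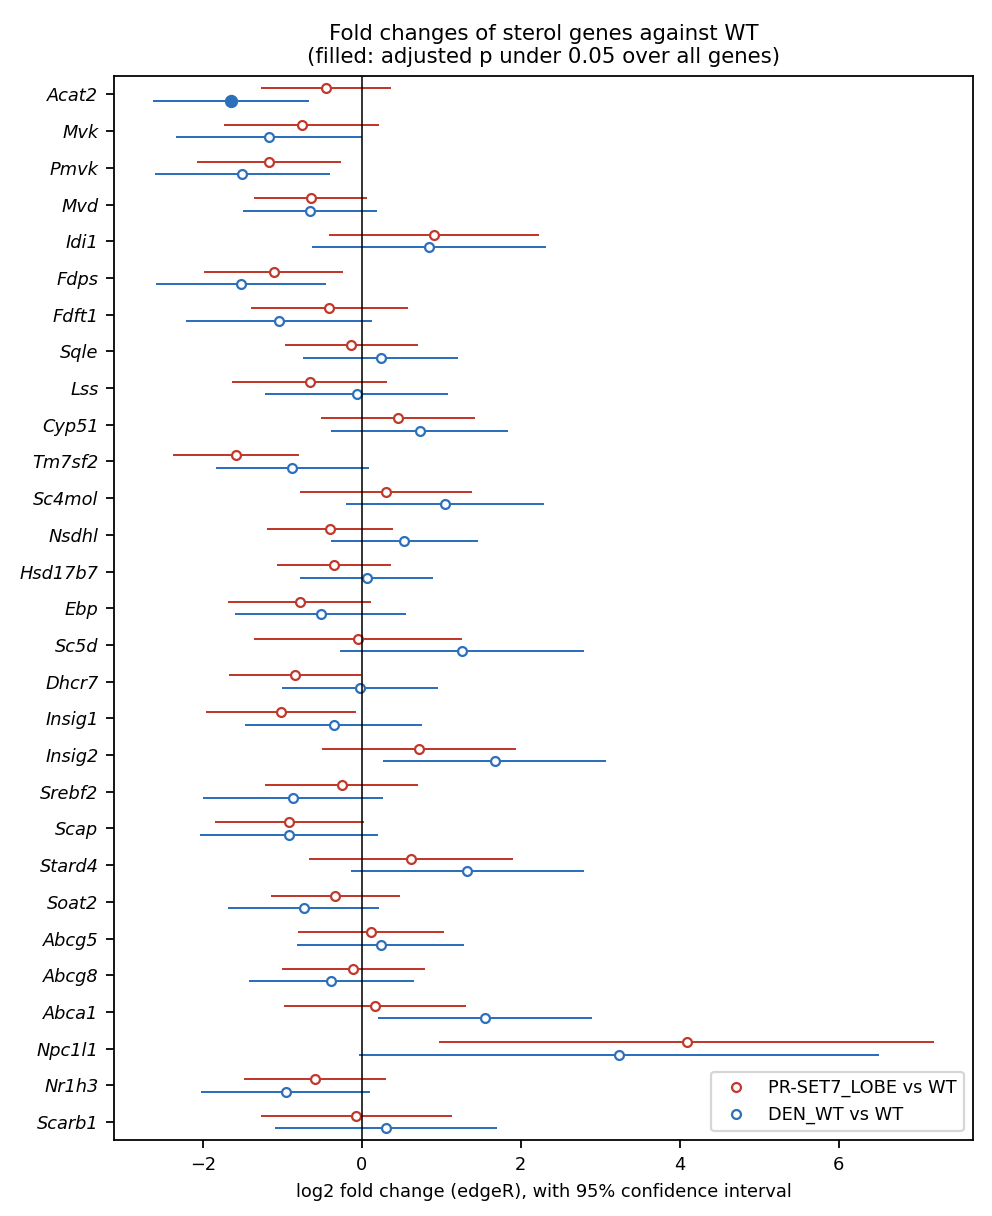
Log2 fold change against WT of each of the 29 sterol genes with its 95% confidence interval, PR-SET7_LOBE in red above DEN_WT in blue, filled where the adjusted p over all tested genes was under 0.05. Acat2 in DEN_WT (-1.65) is the only filled point, most intervals cross 0, and Npc1l1, with 3 counts in WT, has the widest interval.

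Per length, Insig1 ranked 1 of 29 in all 3 groups. Acat2 ranked 2 in PR-SET7_LOBE, 14 in DEN_WT and 3 in WT. Sc5d ranked 11 in PR-SET7_LOBE, 2 in DEN_WT and 11 in WT. Acat2 averaged 78.3 CPM per kb in PR-SET7_LOBE, 34.1 in DEN_WT and 107 in WT, and Sc5d 30.1, 74.5 and 31.2 CPM per kb in the same groups.

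Other genes of the pathway came from lists chosen with earlier results known, and their counts of called genes stand against shares over all tested genes of 0.248% in PR-SET7_LOBE against WT, 9.73% in DEN_WT against WT and 11.1% in PR-SET7_LOBE against DEN_WT. Of 9 tested genes of other sterol synthesis and of 14 tested genes of sterol feedback and uptake of low-density lipoprotein, none was called in any of the 3 comparisons. Their median log2 fold changes were -0.77 and -0.73 in PR-SET7_LOBE against WT (all tested genes 0.11) and -0.91 and -0.84 in DEN_WT against WT (all tested genes 0.06). Among 19 tested genes of other sterol transport and esterification, 1 was called, in DEN_WT against WT: Pdzk1, the adaptor that holds Scarb1 at the cell surface, fell to 29.1 and 25.8 CPM in DEN_WT, against 87.5 and 93.4 CPM in WT (log2 fold change -1.72, SE 0.41, adjusted p = 0.0250, edgeR's quasi-likelihood test with Benjamini-Hochberg adjustment). Pdzk1 stood at 54.0, 34.7, 32.2 and 36.8 CPM in PR-SET7_LOBE, below WT but not called (adjusted p = 0.151). The DEN_WT call of Pdzk1 was lost without WT replicate 1 or 2 (adjusted p = 0.104 and 0.140) and without DEN_WT replicate 1 or 2 (0.179 and 0.251).

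Of 13 tested genes of oxysterol and bile acid exit routes, Cyp39a1 rose in DEN_WT and Cyp46a1 fell in PR-SET7_LOBE against WT. Cyp39a1, which acts on the oxysterol that Cyp46a1 makes, stood at 3.29, 14.2, 7.89 and 7.20 CPM in PR-SET7_LOBE, 26.5 and 62.6 CPM in DEN_WT, and 1.72 and 2.67 CPM in WT. Its log2 fold change was 4.33 in DEN_WT against WT (SE 0.73, adjusted p = 0.00544, and 0.0616 without WT replicate 1) and -2.45 in PR-SET7_LOBE against DEN_WT (SE 0.52, adjusted p = 0.0123, and 0.283 without DEN_WT replicate 2), by edgeR's quasi-likelihood test. Cyp46a1, a cholesterol hydroxylase known mainly from neurons, stood at 7.04, 1.15, 1.02 and 2.64 CPM in PR-SET7_LOBE, 68.3 and 134 CPM in DEN_WT, and 262 and 375 CPM in WT, with an adjusted p of 0.00607 in PR-SET7_LOBE against WT (0.0595 without WT replicate 2) and 0.00142 against DEN_WT. Cyp7b1, an oxysterol hydroxylase of the alternative bile acid route, stood at 49.0, 56.6, 12.9 and 45.6 CPM in PR-SET7_LOBE, 212 and 198 CPM in DEN_WT, and 36.6 and 62.2 CPM in WT, and was lower in PR-SET7_LOBE than in DEN_WT (log2 fold change -2.32, SE 0.50, adjusted p = 0.0130). That call was lost without DEN_WT replicate 1 or 2 (adjusted p = 0.0743 and 0.0782) and with the GC correction (0.104).

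Of 12 tested lipogenic targets of SREBP-1 and LXR, 3 fell in DEN_WT against WT, where 4.54% of all tested genes were called lower, none rose, and none was called in PR-SET7_LOBE against either group. Fatty acid synthase, Fasn, stood at 479 and 837 CPM in DEN_WT, against 2305 and 4175 CPM in WT (log2 fold change -2.30, SE 0.58, adjusted p = 0.0330). The malic enzyme gene Me1 stood at 28.9 and 27.4 CPM in DEN_WT, against 68.0 and 288 CPM in WT (-2.66, SE 0.70, adjusted p = 0.0376), and without WT replicate 2, the higher WT library, its log2 fold change was -1.17. Thrsp, a lipogenic regulator, stood at 222 and 196 CPM in DEN_WT, against 1474 and 3695 CPM in WT (-3.63, SE 0.75, adjusted p = 0.0147). All 3 lost their call in edgeR's quasi-likelihood test without WT replicate 2, without DEN_WT replicate 1 and without DEN_WT replicate 2, with adjusted p between 0.0858 and 0.345. Fasn also lost it without WT replicate 1 (0.0715) and with the GC correction (0.0736), and Fasn and Me1 without PR-SET7_LOBE replicate 2 (0.0514 and 0.0622). The median of the list was -1.14 in PR-SET7_LOBE and -1.004 in DEN_WT against WT, with 11 of the 12 negative in each group. By edgeR's quasi-likelihood test, 7 of the 12 had an unadjusted p under 0.05 in PR-SET7_LOBE (17.2% of all tested genes). In DEN_WT 5 did (28.9% of all tested genes), so a lower level of this list was not particular to DEN_WT.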

How the data were processed

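RNA of whole liver was sequenced after oligo(dT) isolation on an Ion Proton, per the labels' protocols. The deposited values are raw counts per Ensembl gene, made by the authors. The mm9 build, DESeq, Cufflinks and TopHat2 2.0.9 are named, with no role for each, per the submitters' processing notes. Not given in the sources used here are the counting tool, the annotation, the strand setting and the treatment of multi-mapping reads. Nothing in the labels says that a group's libraries come from separate animals, so p-values cover only the spread among these libraries, possibly a technical one.

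All 8 libraries entered 1 fit by group in edgeR 4.0.16 (filterByExpr, TMM, robust quasi-likelihood test, Benjamini-Hochberg over 17362 genes, threshold 0.05), with TMM factors between 0.674 and 1.48 and a common coefficient of variation of 0.479. The fit was tested on counts simulated from its own estimates of spread. These held no GC trend and no outlying library, so that test does not cover such effects. Lengths (exon unions) and GC content came from GENCODE M21, and copies from blastn 2.17.0 at 90% identity or more over 300 bases or more. Replicates differed beyond sampling noise, with a chi-square per degree of freedom of 27.4 or more.

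Members and lists were chosen with earlier results of these data known. Genes were described with every library's value where they were called or had 1 of the 2 smallest p of their role in PR-SET7_LOBE against WT, with Insig2 as the partner of Insig1. The report names 7 more that were chosen after their values were seen, and the others are given by range. Genes of the other lists that were not called are given as counts only. Alternatives were DESeq2 1.42.0 size factors (RLE) and test, upper-quartile scaling, limma 3.58.1 voom with sample quality weights, no filter, a strict filter (5 CPM in 2 libraries), only the groups compared, a replicate block and each library left out. The summed copies and the GC correction (a lowess trend per library as an offset) were added after seeing the data. A GC trend shared by a group is removed along with any true difference that follows GC content.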

Additional observations from a re-analysis of the deposited data

Results flagged for a closer look

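Among the 4 PR-SET7_LOBE libraries, 1 library stood far from the other 3 for 2 of the 29 sterol genes, and chance alone gives such a gap in about 1 of 20 groups tested. For Mvk, PR-SET7_LOBE replicate 1 stood at 67.2 CPM and the nearest library at 29.3 CPM, a gap of 0.891 of the group's range. For Nr1h3, the same library stood at 253 CPM and the nearest at 128 CPM, a gap of 0.870 of the range. Both genes are GC-rich (56.3% and 56.8% GC, against a median of 49.7% over all genes with a value), and levels in that library followed GC content at r = 0.61 across genes. The part of GC content in these gaps was not tested.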

How the results depend on the processing

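Of 87 fold changes of sterol genes (29 genes in 3 comparisons), 24 changed sign under at least 1 of 18 alternatives. The largest of these was 0.84 on the log2 scale and their smallest unadjusted p was 0.224. That largest one was Idi1 in DEN_WT against WT, which was -0.12 with the GC correction. The median log2 fold change of the 29 genes moved by less than the spread between replicates (0.33) in every alternative and comparison. The medians were -0.35 in PR-SET7_LOBE against WT, -0.07 in DEN_WT against WT and -0.26 in PR-SET7_LOBE against DEN_WT. That spread is close to the first and larger than the others, which could change sign within it, so the measure is loose.

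For PR-SET7_LOBE against WT, DESeq2 called 1 sterol gene higher and 1 lower, and voom and the fit without a filter 1 lower each. Leaving out 1 library gave 0 to 1 higher and 0 to 4 lower. Over all genes, 43 calls compared with 66 (upper-quartile scaling), 927 (DESeq2), 386 (voom), 419 (no filter), 19 (only the groups compared), 115 (GC correction) and 1 to 2392 (1 library left out). Upper-quartile scaling moved the median of all genes to 0.29 and the share of higher calls to 71.2%, against 60.5%, while the sterol genes stayed 0.47 below that median (0.46 with TMM).

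For DEN_WT against WT, DESeq2 called 2 sterol genes higher and 3 lower, voom 5 and 8, and the fit of only the groups compared 5 and 7. The fit without a filter and the summed copies called 0 lower. Leaving out 1 library gave 0 to 4 higher and 0 to 5 lower. Over all genes, 1689 calls compared with 3144 (DESeq2), 6335 (voom), 5643 (only the groups compared) and 329 to 4549 (1 library left out). Insig2 passed without PR-SET7_LOBE replicate 3 (adjusted p = 0.0399, edgeR).

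For PR-SET7_LOBE against DEN_WT, DESeq2 called 1 higher and 1 lower, voom 1 and 6, no filter 1 lower, the GC correction 2 lower, and leaving out 1 library 0 to 1 in each direction. Over all genes, 1924 calls compared with 5188 (voom) and 454 to 2662 (1 library left out).

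Whether replicate numbers pair the libraries could not be told. Deviations of same-numbered libraries correlated between -0.00874 and 0.165, and those of differently numbered libraries between -0.165 and 0.160. In a group of 2 libraries the deviations mirror each other, so these values cannot decide it. With a replicate block, 1 sterol gene was higher and 3 lower in DEN_WT against WT (3137 genes in all), 3 lower in PR-SET7_LOBE against DEN_WT, and none in PR-SET7_LOBE against WT (243 genes in all). The block also turned Insig2 in PR-SET7_LOBE against WT to -0.17. With 2 libraries in DEN_WT and in WT, leaving out 1 assumes that the lone library varies like the others. Depth limited Npc1l1 alone among the 29, with 3 counts in WT.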
